A study of Homo sapiens with 8 samples.

Results

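The histone deacetylase (HDAC) family was examined in 22Rv1, a castration-resistant human prostate cancer line, after an inhibitor of the kinase MARK3 was given. The 10 genes HDAC1, HDAC2, HDAC3, HDAC4, HDAC5, HDAC6, HDAC7, HDAC8, HDAC9 and HDAC11 were chosen by name from the 58735 gene identifiers of the deposited count files. HDAC10 was not among the chosen genes. RNA was sequenced from 4 libraries of cells given the inhibitor, PCC0208017, called MARK3i, and from 4 libraries of cells given DMSO, called Control. All 8 libraries came from the same cell line, for which the labels name no engineered allele. Neither the dose nor the duration is given in the sources used here. Nothing in the labels says that the replicates were separate cultures, so p-values measure the spread between these libraries, which may be technical.

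Histone deacetylases remove acetyl groups from lysines of histones and of other proteins, and in chromatin their activity is associated with transcriptional repression. Class I enzymes (HDAC1, HDAC2, HDAC3 and HDAC8) are mainly nuclear, and HDAC1, HDAC2 and HDAC3 work as the catalytic subunits of large corepressor complexes. Class IIa enzymes (HDAC4, HDAC5, HDAC7 and HDAC9) have weak catalytic activity of their own, bind MEF2 transcription factors and shuttle between nucleus and cytoplasm. Calcium/calmodulin-dependent kinases, protein kinase D, salt-inducible kinases and MARK family kinases are known to phosphorylate class IIa proteins, which creates docking sites for 14-3-3 proteins that hold them in the cytoplasm. HDAC6, of class IIb, acts mostly on cytoplasmic proteins such as tubulin, and HDAC11 is the sole class IV enzyme. Class I deacetylases are known to be abundant in prostate carcinoma.

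The total count was 13517289 to 21271127 in MARK3i libraries and 12672817 to 13386143 in Control libraries, and mitochondrial transcripts took 6.66 to 7.05% of the counts in MARK3i libraries and 6.43 to 6.61% in Control libraries. Every pair of libraries within a group differed by more than sampling noise, with a chi-square of 1.71 to 9.80 per degree of freedom over 16552 genes. The Control libraries formed 2 close pairs, replicates 1 and 2 at 1.73 and replicates 3 and 4 at 1.71. Other Control pairs were at 3.415 to 4.596, and MARK3i pairs at 3.4 to 9.80. What set these pairs apart was not tested, and the main fit below took no account of them. Of 8 markers of epithelial or prostate identity all were expressed. CPM is the count of a gene relative to the size of its library, adjusted by trimmed mean of M values or TMM factors. The summed level of the 8 markers was 1491 to 1623 CPM in MARK3i libraries and 1899 to 1968 CPM in Control libraries. In this list 1 gene was higher, 5 were lower and 2 were not called. The general epithelial gene CDH1 was the higher one, at 403.9 ± 12.5 CPM in MARK3i libraries and 326.8 ± 13.6 CPM in Control libraries (SD). EPCAM and KRT8, here named outside the rule for examples, were not called. KLK2, which encodes a secreted prostate protease, was at 5.66 ± 0.328 CPM in MARK3i libraries and 62.2 ± 4.78 CPM in Control libraries (SD, n = 4 each). Of 12 markers of stroma, endothelium and blood cells, 3 were abundant enough to test, and the summed level of all 12 was 16.2 to 24.5 CPM in MARK3i libraries and 14.2 to 19.9 CPM in Control libraries. Of the tested 3, 1 was higher, 1 lower and 1 not called. The collagen gene COL1A1 was the higher one, at 14.2 to 21.5 CPM in MARK3i libraries and 8.55 to 13.7 CPM in Control libraries. LUM, which encodes a proteoglycan of connective tissue, was the lower one, at 0.509 ± 0.201 CPM in MARK3i libraries and 3.003 ± 0.439 CPM in Control libraries. The untested stromal genes DCN and PDGFRB were also lower in every MARK3i library than in every Control library, at means of at most 0.538 CPM in a group. The untested blood cell gene CD14 went the other way, higher in every MARK3i library, at means of 0.741 CPM in MARK3i and 0.378 CPM in Control libraries. The part of any such cells in the results below was not tested. The endothelial genes PECAM1 and CDH5 and the T cell gene CD3E had 0 counts in all 8 libraries. In bulk RNA, fewer cells of a type and less RNA per cell cannot be told apart.

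Proximal promoters are shown for the 4 called members that had a single annotated window, for the sequence context from which these transcripts start. Windows of 250 bases before to 50 bases after an annotated start were taken from RefSeq on GRCh38.p14, and 9 of the 10 members matched, all but HDAC5, with 19 windows among them. Both strands were searched for the GC box GGGCGG, for the CCAAT box, for the TATA box TATAAA, for the E-box CACGTG and for the core TGACG of the cyclic AMP response element. Matches to different motifs may share bases. Capitals mark GGGCGG or its reverse complement. HDAC11 and HDAC8 were higher in MARK3i libraries, and HDAC7 and HDAC2 were lower. Each sequence runs 5′ to 3′ on the strand of the gene.
HDAC11, chr3:13480056-13480355, plus strand: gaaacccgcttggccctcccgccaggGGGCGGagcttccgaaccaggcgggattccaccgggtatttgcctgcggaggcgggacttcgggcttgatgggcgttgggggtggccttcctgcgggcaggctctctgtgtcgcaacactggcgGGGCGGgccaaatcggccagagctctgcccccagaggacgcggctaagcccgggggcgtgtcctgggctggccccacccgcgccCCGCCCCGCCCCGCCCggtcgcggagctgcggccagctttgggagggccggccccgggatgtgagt
HDAC8, chrX:72572794-72573093, minus strand: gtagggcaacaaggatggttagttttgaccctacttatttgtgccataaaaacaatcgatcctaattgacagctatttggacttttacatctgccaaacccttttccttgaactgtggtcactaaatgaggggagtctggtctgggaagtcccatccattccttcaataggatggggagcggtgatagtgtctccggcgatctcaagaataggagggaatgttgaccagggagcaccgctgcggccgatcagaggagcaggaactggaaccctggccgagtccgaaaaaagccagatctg
HDAC7, chr12:47819854-47820153, minus strand: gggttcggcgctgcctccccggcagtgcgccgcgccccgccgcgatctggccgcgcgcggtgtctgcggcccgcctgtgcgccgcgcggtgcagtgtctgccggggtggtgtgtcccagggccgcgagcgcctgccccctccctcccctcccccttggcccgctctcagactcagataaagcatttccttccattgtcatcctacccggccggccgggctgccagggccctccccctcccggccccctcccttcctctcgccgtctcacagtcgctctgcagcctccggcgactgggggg
HDAC2, chr6:113971099-113971398, minus strand: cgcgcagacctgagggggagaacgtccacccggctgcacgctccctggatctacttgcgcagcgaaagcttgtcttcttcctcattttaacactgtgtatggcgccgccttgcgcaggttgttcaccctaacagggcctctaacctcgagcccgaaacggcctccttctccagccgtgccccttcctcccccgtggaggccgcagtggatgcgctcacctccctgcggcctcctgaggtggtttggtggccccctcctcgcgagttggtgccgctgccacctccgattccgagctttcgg

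The HDAC11 window held 5 matches to GGGCGG, some of them overlapping, and 73.7% G and C. The HDAC7 window had a similar base composition, at 74.7% G and C, and none of the 5 motifs. The HDAC2 window (64.0% G and C) and the HDAC8 window (49.3% G and C) also held none of them. Among the 35116 RefSeq windows, 45.0% held GGGCGG, 34.6% CCAAT, 11.5% TATAAA, 24.6% TGACG and 7.26% CACGTG, and the median G and C content was 58.7%. Of the 19 member windows, 8 held GGGCGG, 6 held CCAAT, 1 held TGACG, 1 held CACGTG and 0 held TATAAA. Windows of 1 gene can overlap, and HDAC4 and HDAC9, both called, contributed 5 windows each and are not printed. Of the HDAC4 windows 1 held both CACGTG and GGGCGG, and of the HDAC9 windows 3 held CCAAT and 1 held GGGCGG. A match describes the letters of a window and does not show that a factor binds there.

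Transcript levels of the family were compared per length, as CPM per kilobase of merged exons (RPKM) on the scale of TMM factors. HDAC1 was the most abundant member in both groups, at 110.7 ± 4.26 RPKM in MARK3i libraries and 107.3 ± 2.69 RPKM in Control libraries (SD, n = 4 each, here and for each mean below). In MARK3i libraries HDAC5 came next at 24.0 ± 1.42 RPKM, followed by HDAC3 at 17.6 ± 1.26, HDAC2 at 10.8 ± 0.686 and HDAC7 at 4.85 ± 0.543 RPKM. In Control libraries HDAC3 was second at 16.2 ± 0.632 RPKM, and its range overlapped that of HDAC5 at 15.5 ± 0.734 RPKM. HDAC2 followed in Control libraries at 12.2 ± 0.611 RPKM and HDAC7 at 6.86 ± 0.722 RPKM. The lower ranks were thus held by the same genes in both groups with 1 exchange of places. HDAC6 was at 2.46 ± 0.182 RPKM in MARK3i libraries and 2.59 ± 0.118 RPKM in Control libraries, and HDAC11 was at 1.28 ± 0.0795 RPKM in MARK3i libraries and 0.869 ± 0.0797 RPKM in Control libraries. HDAC8 ranked above HDAC4 in MARK3i libraries (0.646 ± 0.0325 and 0.529 ± 0.108 RPKM, with overlapping ranges) and below it in Control libraries (0.488 ± 0.0708 and 0.680 ± 0.0832 RPKM). HDAC9 was the least abundant member, at 0.163 ± 0.0216 RPKM in MARK3i libraries and 0.104 ± 0.0322 RPKM in Control libraries. In Control libraries the ranges of HDAC11 and HDAC4 also overlapped, and the ranges of all other neighbours in either order were separate.

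**Figure D1:**
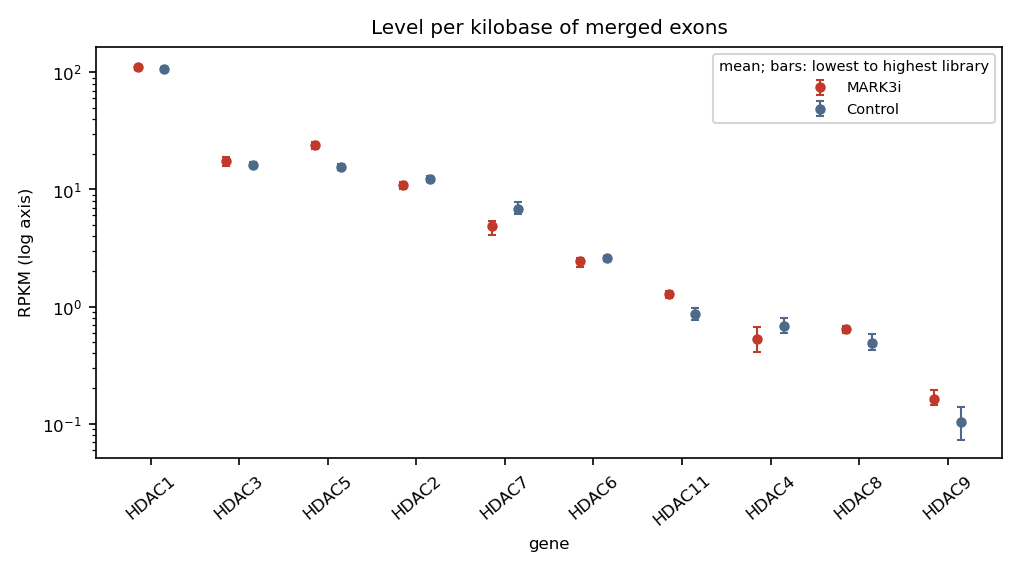
Level of each HDAC gene per length, in RPKM on a log axis. Points are the means of 4 MARK3i and of 4 Control libraries, and bars run from the lowest to the highest library. HDAC1 stands above 100 RPKM in all 8 libraries and HDAC9 below 0.2 RPKM.

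The order depended in part on the gene length used. With the longest annotated transcript in place of merged exons, HDAC3 came second and HDAC5 followed it in both groups, at 41.5 ± 2.98 and 34.3 ± 2.03 RPKM in MARK3i libraries. HDAC8, whose merged exons span 22888 bases against 5689 in its longest transcript, was then seventh in both groups and HDAC11 eighth.

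The comparison of MARK3i with Control asked whether transcripts of the deacetylases differed in cells given the compound. All 10 members passed the filter on low counts and 7 of them were called, at an adjusted p under 0.05 (quasi-likelihood test of edgeR, adjusted by Benjamini and Hochberg's method over 16452 genes, the source of each adjusted p below). HDAC5, HDAC8, HDAC9 and HDAC11 rose, HDAC2, HDAC4 and HDAC7 fell, and HDAC1, HDAC3 and HDAC6 were not called. Across all tested genes 58% were called, 29.8% as higher and 28.3% as lower, so that the members' share of 70% was close to the background. For 6 members the 4 libraries of one group lay beyond all 4 of the other, 4 above and 2 below, where 51% of all tested genes did so. The median log2 change of the 10 members was 0.08, beside 0.02 over all tested genes, and their median absolute log2 change was 0.38, beside 0.33. A larger absolute change than that of HDAC9 was seen in 23.9% of tested genes, and a larger one than that of HDAC5 in 24.2%.

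**Figure D2:**
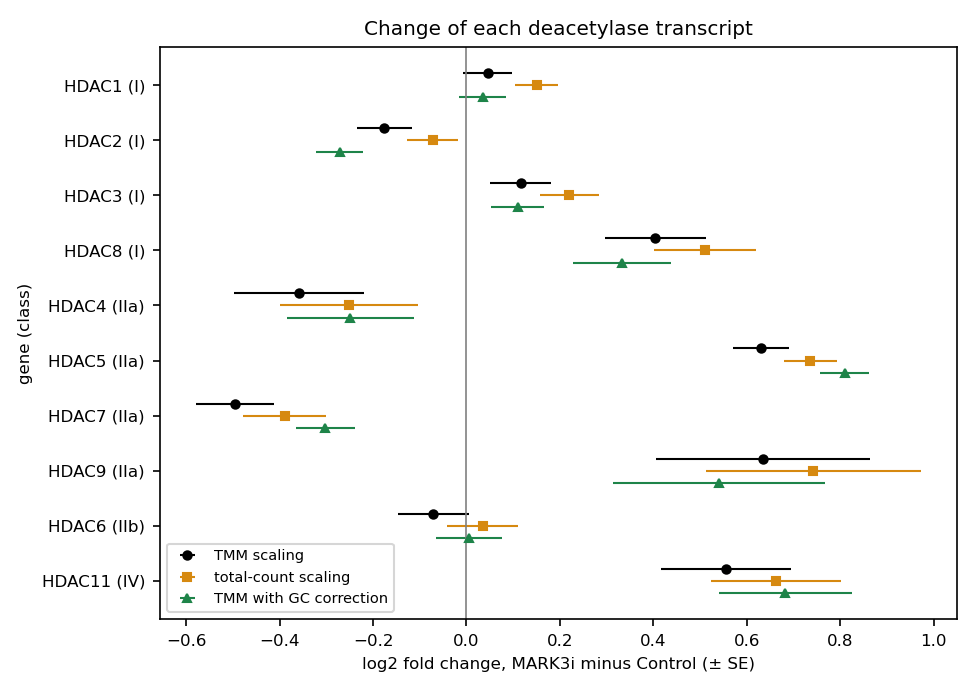
Log2 change of each HDAC gene, MARK3i over Control, with its standard error, by class of deacetylase. Each gene is shown with TMM scaling, with total-count scaling and with TMM scaling corrected for GC content. HDAC5, HDAC9, HDAC11 and HDAC8 lie above 0, and HDAC7, HDAC4 and HDAC2 lie below 0. HDAC1 and HDAC3, not called with TMM scaling, also lie above 0, and HDAC6 lies on either side.

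The split of calls depended on how libraries were scaled. When total counts replaced TMM factors, the median log2 change over all tested genes was 0.13, and 63.6% of called genes were higher, against 51.3% with TMM factors. HDAC1 (log2 change 0.15, adjusted p = 0.008017) and HDAC3 (0.22, adjusted p = 0.005045) were then called as higher, HDAC2 (−0.07, adjusted p = 0.2655) and HDAC4 (−0.25, adjusted p = 0.1459) were not called, and 6 members were higher and 1 lower. HDAC5, HDAC8, HDAC9 and HDAC11 stayed higher and HDAC7 lower in that scaling.

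**Figure D3:**
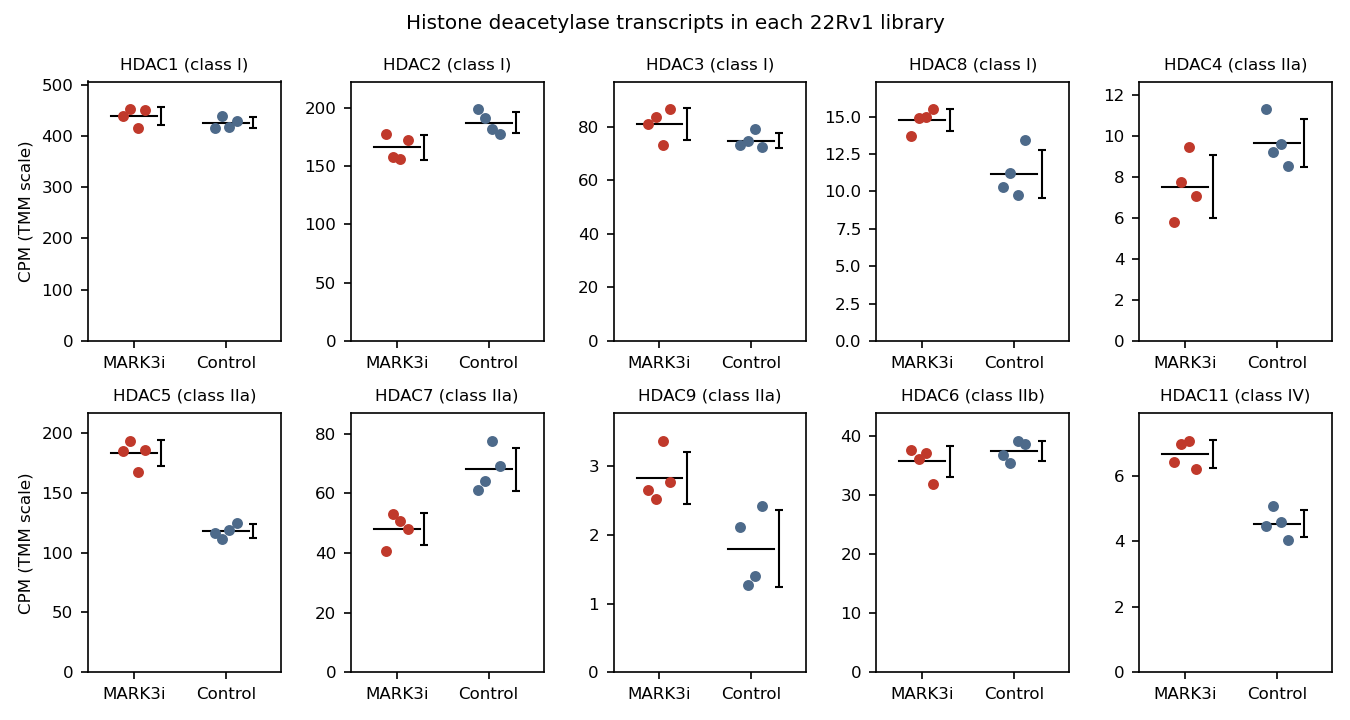
Level of each HDAC gene in CPM on the TMM scale, 1 panel per gene with its own axis, 1 point per library and a line at the mean of 4 MARK3i libraries (left) and 4 Control libraries (right). The points of the groups do not overlap for HDAC2, HDAC5, HDAC7, HDAC8, HDAC9 and HDAC11.

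Class IIa, whose members the MARK kinases are known to phosphorylate, split into 2 higher and 2 lower genes. HDAC5 (ENSG00000108840, chr17:44076746-44123702, minus strand, hg38) encodes a repressor of MEF2 known from heart and muscle. It was at 184.4, 193.2, 167.5 and 185.4 CPM in MARK3i replicates 1 to 4, and at 116.3, 111.6, 119.1 and 125.0 CPM in Control replicates 1 to 4. Every MARK3i library was above every Control library, and the lowest of them, replicate 3, was well clear of the highest Control library. The log2 change was 0.63 ± 0.06 (SE, adjusted p = 2.001e-09), or 1.55-fold. With offsets that took out the GC trend of every library (the GC correction), the log2 change of HDAC5 was 0.81 (adjusted p = 7.278e-15). HDAC5 shares 1826 exonic bases, 24.0% of its merged exons, with G6PC3 on the opposite strand, which encodes a ubiquitous glucose-6-phosphatase. G6PC3 fell, at 102.1 ± 7.05 CPM in MARK3i libraries and 147.8 ± 8.79 CPM in Control libraries (log2 change −0.53 ± 0.06, adjusted p = 8.931e-08). The sources used here do not say whether counting used the strand, so reads of the pair may not have been told apart.

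HDAC7 (ENSG00000061273, chr12:47782722-47833132, minus strand) encodes a class IIa protein known from thymocytes and vascular endothelium, and is a described substrate of MARK family kinases. It was at 40.6, 53.0, 50.8 and 48.1 CPM in MARK3i replicates 1 to 4, and at 61.2, 64.2, 77.6 and 69.3 CPM in Control replicates 1 to 4. The groups were separate, with MARK3i replicate 1 the lowest and Control replicate 3 the highest library. HDAC7 fell by 0.50 ± 0.08 on the log2 scale (SE, adjusted p = 1.757e-05) and was 1.41-fold lower. With the GC correction, its log2 change was −0.30 (adjusted p = 0.0001062). HDAC7 shares 30 exonic bases with SLC48A1 on the opposite strand, a heme transporter gene that was not called (32.7 ± 1.39 CPM in MARK3i libraries and 32.1 ± 1.74 CPM in Control libraries). Also on the opposite strand, it shares 963 exonic bases with ENSG00000268069 and 117 with ENSG00000276691. Each of these long non-coding genes had at most 2 counts in a library.

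HDAC4 and HDAC9 were scarce and their calls were fragile. HDAC4 (ENSG00000068024, chr2:239048168-239401654, minus strand), which encodes a class IIa repressor best known from cartilage and neurons, was at 5.79, 7.73, 9.46 and 7.05 CPM in MARK3i replicates 1 to 4, and at 11.3, 9.19, 9.59 and 8.50 CPM in Control replicates 1 to 4. MARK3i replicate 3 lay within the Control range, so the groups overlapped. HDAC4 fell by 0.36 ± 0.14 on the log2 scale (SE, adjusted p = 0.03033). The call was lost without Control replicate 1 (−0.28, adjusted p = 0.1185), Control replicate 3 (−0.36, adjusted p = 0.05021), MARK3i replicate 1 (−0.28, adjusted p = 0.08207) or MARK3i replicate 4 (−0.33, adjusted p = 0.06942), and with the GC correction (−0.25, adjusted p = 0.1154).

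HDAC9 (ENSG00000048052, chr7:18086949-19002416, plus strand) encodes a class IIa protein with many splice forms, some of which lack the catalytic domain. It had 38, 56, 48 and 40 counts in MARK3i replicates 1 to 4 and 27, 16, 17 and 31 counts in Control replicates 1 to 4. On the TMM scale this was 2.65, 2.52, 3.36 and 2.77 CPM in MARK3i libraries, against 2.11, 1.27, 1.39 and 2.42 CPM in Control libraries. The groups did not overlap, but MARK3i replicate 2 and Control replicate 4 were close to each other. HDAC9 rose by 0.64 ± 0.23 on the log2 scale (SE, adjusted p = 0.02006), with a standard error well above that of the abundant members. Its call was lost without Control replicate 2 (0.50, adjusted p = 0.08103), Control replicate 3 (0.53, adjusted p = 0.07224) or MARK3i replicate 3 (0.53, adjusted p = 0.06995).

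The balance within class IIa can be read without any scaling of libraries, from the ratio of HDAC5 to HDAC7 counts in the same library. This ratio was 4.54, 3.64, 3.30 and 3.86 in MARK3i replicates 1 to 4, and 1.90, 1.74, 1.54 and 1.80 in Control replicates 1 to 4. All MARK3i libraries were above all Control libraries, with no library in between. Per length, HDAC5 made up 81.2 ± 2.16% of class IIa RPKM in MARK3i libraries and 67.0 ± 1.70% in Control libraries, whereas HDAC7 made up 16.4 ± 1.72% in MARK3i libraries and 29.6 ± 1.98% in Control libraries. HDAC4 took 1.80 ± 0.414% in MARK3i libraries and 2.95 ± 0.451% in Control libraries, and HDAC9 took 0.557 ± 0.0983% in MARK3i libraries and 0.449 ± 0.133% in Control libraries. Class IIa as a whole was 17.1 ± 0.406% of the RPKM summed over the 10 genes in MARK3i libraries and 14.2 ± 0.756% in Control libraries. Whether reads from the bases shared with G6PC3 are among the HDAC5 counts in these ratios is not known.

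**Figure D4:**
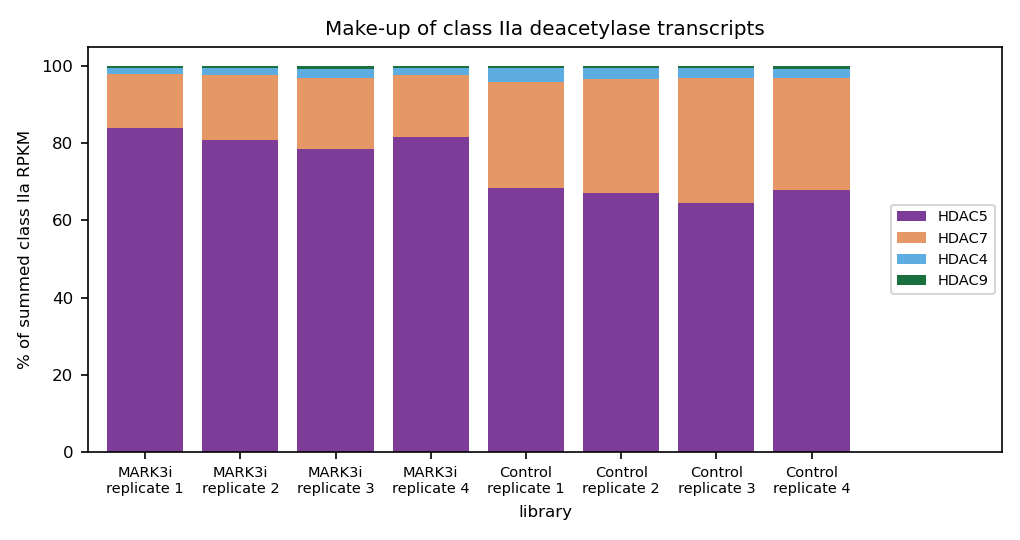
Share of each class IIa gene in the summed class IIa RPKM, in percent, for each of the 4 MARK3i libraries and the 4 Control libraries. HDAC5 holds 81.2% on average in MARK3i libraries and 67.0% in Control libraries.

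In class I, HDAC8 rose, HDAC2 fell, and HDAC1 and HDAC3 were not called. HDAC1 (ENSG00000116478, chr1:32292083-32333635, plus strand), a catalytic subunit of the NuRD, SIN3 and CoREST complexes, was at 438.6, 452.2, 415.5 and 450.5 CPM in MARK3i replicates 1 to 4, and at 415.6, 438.7, 418.3 and 429.6 CPM in Control replicates 1 to 4. The groups overlapped, and the log2 change of 0.05 ± 0.05 (SE, adjusted p = 0.4749) was not called. HDAC2 (ENSG00000196591, chr6:113933028-114011308, minus strand), its close paralog in the same complexes, was at 177.3, 157.9, 156.3 and 172.8 CPM in MARK3i replicates 1 to 4, and at 198.8, 191.0, 182.2 and 177.8 CPM in Control replicates 1 to 4. MARK3i replicate 1 and Control replicate 4 were nearly equal, and the other libraries were further apart. HDAC2 fell by 0.18 ± 0.06 on the log2 scale (SE, adjusted p = 0.0135), a call lost without Control replicate 1 (−0.15, adjusted p = 0.05195). With the GC correction the log2 change of HDAC2 was −0.27 (adjusted p = 2.899e-05).

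The ratio of HDAC1 to HDAC2 counts, which needs no scaling, was 2.47, 2.86, 2.66 and 2.61 in MARK3i replicates 1 to 4, and 2.09, 2.30, 2.30 and 2.42 in Control replicates 1 to 4. All 4 MARK3i libraries had the higher ratios, although MARK3i replicate 1 and Control replicate 4 lay close together. Of the 50-base stretches of HDAC1 transcripts 0.212% also occur in another gene, the pseudogene HDAC1P2, which had at most 9 counts in a library. HDAC2-AS2, which shares 69 exonic bases with HDAC2 on the opposite strand, was too scarce to test.

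HDAC3 (ENSG00000171720, chr5:141620876-141636849, minus strand), the enzyme of the NCoR corepressor, was at 80.9, 83.7, 73.0 and 86.5 CPM in MARK3i replicates 1 to 4, and at 73.3, 74.5, 79.0 and 72.4 CPM in Control replicates 1 to 4. The groups overlapped through MARK3i replicate 3 and Control replicate 3, and the log2 change of 0.12 ± 0.07 (SE, adjusted p = 0.1309) was not called. Without MARK3i replicate 3 it was called (0.15, adjusted p = 0.04757).

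HDAC8 (ENSG00000147099, chrX:72329516-72573101, minus strand), which deacetylates the cohesin subunit SMC3, was the class I gene that rose. It was at 13.7, 14.9, 14.99 and 15.5 CPM in MARK3i replicates 1 to 4, and at 10.3, 11.3, 9.76 and 13.4 CPM in Control replicates 1 to 4. The groups were separate by a narrow margin, between MARK3i replicate 1 and Control replicate 4. The log2 change was 0.40 ± 0.11 (SE, adjusted p = 0.002521), or 1.32-fold. HDAC8 shares 1193 exonic bases, 5.21% of its merged exons, with the protein-coding gene ENSG00000285547 on the same strand. That gene had 0 counts in every library. The summed class I level was 701 ± 28.5 CPM in MARK3i libraries and 699 ± 11.6 CPM in Control libraries.

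HDAC11 and HDAC6 stand outside these classes. HDAC11 (ENSG00000163517, chr3:13479724-13506424, plus strand), known to remove long fatty acyl groups from lysines, was at 6.41, 6.97, 7.08 and 6.22 CPM in MARK3i replicates 1 to 4, and at 4.46, 5.07, 4.59 and 4.06 CPM in Control replicates 1 to 4. Every MARK3i library exceeded every Control library. The log2 change was 0.56 ± 0.14 (SE, adjusted p = 0.001433), or 1.47-fold, and it was 0.68 with the GC correction (adjusted p = 0.0001074). Its antisense neighbour HDAC11-AS1, which shares 330 exonic bases with it, had at most 4 counts in any library. HDAC6 (ENSG00000094631, chrX:48801377-48824982, plus strand), the tubulin deacetylase, was at 37.6, 36.0, 37.1 and 31.8 CPM in MARK3i replicates 1 to 4, and at 36.7, 35.4, 39.1 and 38.5 CPM in Control replicates 1 to 4. The groups overlapped, and the log2 change of −0.07 ± 0.08 (SE, adjusted p = 0.4366) was not called and had the opposite sign under total-count scaling (0.03) and the GC correction (0.005).

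Genes of the complexes, regulators and targets of the family were taken from 11 lists. Of their 109 genes 106 were tested and 70 were called, 45 as higher and 25 as lower, a share of 66% beside the background of 58%. By direction, 29.8% of all tested genes were called as higher and 28.3% as lower, the background for the counts of each list below. The median log2 change of the tested genes was 0.06. With total-count scaling 55 were higher and 19 lower.

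The complexes that carry HDAC1 and HDAC2 differed subunit by subunit. In NuRD, the nucleosome remodelling and deacetylase complex, 7 of 13 subunits fell, 3 rose and 3 were not called, with a median log2 change of −0.17. The histone chaperone RBBP4 was at 169.6 ± 2.76 CPM in MARK3i libraries and 284.8 ± 7.74 CPM in Control libraries (log2 change −0.75 ± 0.05, adjusted p = 7.373e-12). The remodelling ATPase CHD3 fell by 0.75 ± 0.06 and the scaffold MTA2 by 0.59 ± 0.06 on the log2 scale. The 3 higher subunits, MTA3, CHD4 and CHD5, had calls that were lost when some single libraries were left out, and none of them was called without Control replicate 1 or without MARK3i replicate 2, and 1 was called without MARK3i replicate 3. RBBP4 is also a subunit of SIN3, and it was counted once, under NuRD.

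In the SIN3 complex 5 of 14 subunits rose, 2 fell and 7 were not called, with a median of 0.08. SAP30, a SIN3 adaptor, was at 59.1 ± 6.23 CPM in MARK3i libraries and 113.9 ± 7.28 CPM in Control libraries (log2 change −0.95 ± 0.07, adjusted p = 3.714e-11), and the subunit gene SINHCAF fell by 0.81 ± 0.07. ARID4A rose by 0.50 ± 0.08 and ARID4B by 0.34 ± 0.07. The count of higher SIN3 genes was 8 with total-count scaling and 3 without Control replicate 4.

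Among the CoREST, MiDAC and MIER complexes 8 of 16 genes rose, 2 fell and 6 were not called, with a median of 0.16. MIER3 was at 55.1 ± 5.07 CPM in MARK3i libraries and 40.1 ± 4.76 CPM in Control libraries (log2 change 0.46 ± 0.08, adjusted p = 5.419e-05), and REST, the repressor that recruits CoREST in non-neuronal cells, rose by 0.29 ± 0.07. RCOR2, a CoREST scaffold, fell by 0.72 ± 0.10 and HMG20B by 0.30 ± 0.06, the HMG20B call being lost with the GC correction. Without MARK3i replicate 2, 4 genes of the list were lower.

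In the NCoR corepressor, in which HDAC3 works, 3 of 5 genes fell, 1 rose and 1 was not called, with a median of −0.27. TBL1X, which encodes a WD40 subunit, was at 37.4, 39.7, 37.97 and 38.03 CPM in MARK3i replicates 1 to 4, and at 54.7, 49.2, 52.6 and 44.9 CPM in Control replicates 1 to 4. All MARK3i libraries were below all Control libraries, with Control replicate 4 the nearest. TBL1X fell by 0.39 ± 0.07 on the log2 scale (SE, adjusted p = 5.647e-05), and GPS2, another subunit gene, rose by 0.58 ± 0.13 (SE, adjusted p = 0.0007022).

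**Figure D5:**
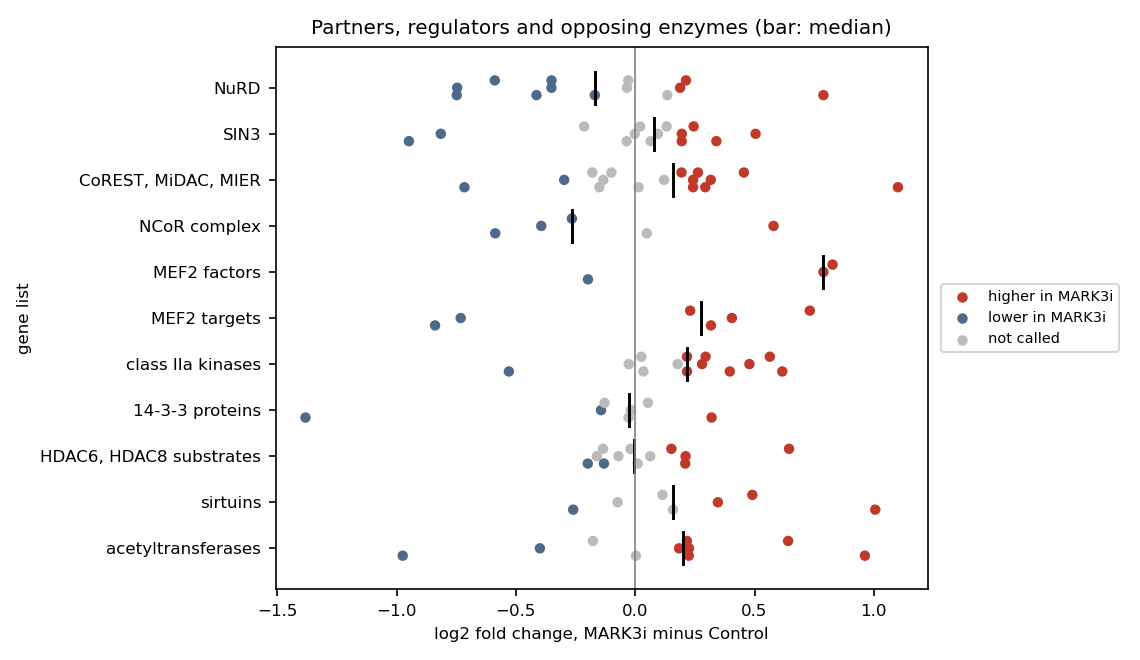
Log2 change, MARK3i over Control, of each tested gene in the 11 lists of complexes, regulators and related enzymes, with 1 point per gene and a line at the median of each list. Medians lie between −0.27 for NCoR and 0.79 for the MEF2 factors.

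Of 15 genes for kinases that act on class IIa proteins 13 were tested, of which 8 rose, 1 fell and 4 were not called, with a median of 0.22. With the GC correction 6 were higher and 1 lower. CAMK2G was at 52.9 ± 0.955 CPM in MARK3i libraries and 34.6 ± 2.51 CPM in Control libraries (log2 change 0.62 ± 0.07, adjusted p = 5.682e-08). The protein kinase D gene PRKD2 rose by 0.56 ± 0.10 and CAMK4 by 0.48 ± 0.10, while CAMK1 fell by 0.53 ± 0.14. MARK3, the named target of the compound and here named outside the rule for examples, was at 87.6, 90.7, 91.2 and 93.1 CPM in MARK3i replicates 1 to 4, and at 80.4, 75.0, 79.0 and 77.6 CPM in Control replicates 1 to 4. All MARK3i libraries were higher, by 0.22 ± 0.06 on the log2 scale (SE, adjusted p = 0.002867). An inhibitor acts on the protein, so the transcript does not check the treatment.

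Of the 7 genes for 14-3-3 proteins 1 rose, 2 fell and 4 were not called. SFN, which encodes the epithelial form 14-3-3 sigma, was at 172.4, 173.6, 174.8 and 170.7 CPM in MARK3i replicates 1 to 4, and at 426.3, 447.8, 468.1 and 460.8 CPM in Control replicates 1 to 4. The groups were far apart, and the log2 change was −1.38 ± 0.05 (SE, adjusted p = 8.264e-17), or 2.61-fold lower. YWHAZ, the 14-3-3 zeta gene, was at 822.4 ± 49.3 CPM in MARK3i libraries and 658.8 ± 34.3 CPM in Control libraries (log2 change 0.32 ± 0.06, adjusted p = 3.791e-05). The call of YWHAE (−0.14 ± 0.06, adjusted p = 0.0368) was lost under upper-quartile and total-count scaling and without each of 6 single libraries, namely all 4 Control replicates and MARK3i replicates 2 and 3. The median of the list was −0.03, and it changed sign under upper-quartile and total-count scaling.

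Of the MEF2 transcription factors, which class IIa proteins repress, 3 of 4 genes were tested. MEF2A was at 41.1, 36.1, 42.5 and 32.5 CPM in MARK3i replicates 1 to 4, and at 24.0, 22.1, 20.0 and 19.6 CPM in Control replicates 1 to 4. MEF2C was at 8.71, 8.14, 9.04 and 8.64 CPM in MARK3i replicates 1 to 4, and at 5.17, 5.23, 5.25 and 4.29 CPM in Control replicates 1 to 4. Both were higher in every MARK3i library, by 0.83 ± 0.09 for MEF2A (SE, adjusted p = 3.299e-08) and 0.79 ± 0.13 for MEF2C (SE, adjusted p = 1.294e-05) on the log2 scale. MEF2D, the most abundant of them in CPM, fell by 0.20 ± 0.07 (adjusted p = 0.01237) with overlapping groups, a call lost with total-count scaling and with the GC correction.

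Genes described in other cells as targets of MEF2 and class IIa deacetylases did not move in 1 direction. Of these 6 genes 4 rose and 2 fell, with a median of 0.27. The call of KLF2, which rose, was lost without Control replicate 3 and without MARK3i replicate 4. The immediate early gene JUN was at 145.1 ± 7.53 CPM in MARK3i libraries and 87.4 ± 2.63 CPM in Control libraries (log2 change 0.73 ± 0.06, adjusted p = 1.185e-10), and KLF6 rose by 0.32 ± 0.08. KLF4 was at 22.2 ± 0.470 CPM in MARK3i libraries and 39.7 ± 2.44 CPM in Control libraries (log2 change −0.84 ± 0.08, adjusted p = 8.766e-10). The orphan nuclear receptor gene NR4A1 fell by 0.73 ± 0.10.

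A list of 12 genes held substrates and partners of HDAC6 and HDAC8 and the acetyltransferases that act on the same substrates. In this list 4 rose, 2 fell and 6 were not called, with a median of −0.005 that was 0.10 under total-count scaling. The higher genes included the acetyltransferase gene ESCO1, here named outside the rule for examples, whose call was lost in 8 of 19 alternatives. Both lower calls, TUBA4A and CTTN, were lost with total-count and upper-quartile scaling and without Control replicate 3. Without Control replicate 3 or without MARK3i replicate 1, 2 genes of the list were higher. TUBA1A, an alpha-tubulin gene, was at 277.2 ± 17.0 CPM in MARK3i libraries and 177.3 ± 13.3 CPM in Control libraries (log2 change 0.64 ± 0.06, adjusted p = 2.327e-09). Alpha-tubulin genes are near-identical, so reads could have been split among them and the value of TUBA1A is uncertain.

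The sirtuins, the other branch of deacetylases, which depend on NAD, had 3 of 7 genes higher, 1 lower and 3 not called, with a median of 0.16. The nuclear enzyme SIRT1 was at 47.0 ± 2.68 CPM in MARK3i libraries and 33.4 ± 2.58 CPM in Control libraries (log2 change 0.49 ± 0.08, adjusted p = 4.953e-06). SIRT2, which also acts on tubulin, rose by 0.35 ± 0.07, and the mitochondrial SIRT4 rose by 1.006 ± 0.20. The lower call of SIRT5 was lost with total-count scaling, in which 5 sirtuins were higher and 0 lower.

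Of 10 acetyltransferases, which add the groups that deacetylases remove, 6 rose, 2 fell and 2 were not called, with a median of 0.20. The paralogs KAT2A and KAT2B, which share a place in the same coactivator complexes, moved in opposite directions. KAT2A was at 60.7, 73.4, 64.6 and 67.6 CPM in MARK3i replicates 1 to 4, and at 120.6, 128.2, 139.2 and 136.2 CPM in Control replicates 1 to 4. KAT2B was at 46.0, 40.3, 43.2 and 44.1 CPM in MARK3i replicates 1 to 4, and at 23.7, 24.2, 22.96 and 18.2 CPM in Control replicates 1 to 4. The groups were separate for both genes, with log2 changes of −0.97 ± 0.07 for KAT2A (SE, adjusted p = 5.961e-12) and 0.96 ± 0.09 for KAT2B (SE, adjusted p = 7.644e-10). KAT6B rose by 0.64 ± 0.08 and KAT8, the acetyltransferase of histone H4, fell by 0.40 ± 0.07. The count of higher genes was 3 without Control replicate 4 and 3 without MARK3i replicate 3.

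The genes whose profiles were nearest to those of the members with the largest rise and fall were found by the root-mean-square difference of centred log2 CPM over the 8 libraries, among the 10253 genes that averaged 10 CPM or more. Nearest to HDAC7 were DOT1L, PIDD1 and CCDC57, at differences of 0.0472, 0.0483 and 0.0492, with log2 changes of −0.50, −0.48 and −0.55. Nearest to HDAC9 were ZNF461, STAG3 and TTC14, at 0.161, 0.179 and 0.187, with log2 changes of 0.75, 0.71 and 0.72. HDAC9 was taken for its log2 change of 0.64 ± 0.23 beside 0.63 ± 0.06 for HDAC5 (SE), which do not differ beyond their errors. With the GC correction, and without Control replicate 2, Control replicate 3 or MARK3i replicate 3, HDAC5 had the larger rise. Distances to HDAC9 were larger, and HDAC9 was the member with the fewest counts.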

How the data were processed

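RNA of 8 samples of 22Rv1 cells was sequenced. The deposited files hold whole-number counts per gene, which the authors obtained with featureCounts from reads aligned to hg38, per the submitters' processing notes. The sources used here do not name the aligner, annotation, strandedness or versions. Groups and replicate numbers came from the sample titles. Of the 58735 identifiers 58207 were found in GENCODE 44, which gave symbols, coordinates, lengths and GC content. The other 528 were kept and took up to 0.0979% of the counts, and 0 lines named no gene.

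The test was that of edgeR 4.0.16, run in R 4.3.3 (filterByExpr with its default minimum count of 10, TMM factors, robust glmQLFit, glmQLFTest on the group, Benjamini-Hochberg adjustment, threshold 0.05). The standard error is the absolute log2 change divided by the square root of the F statistic. The common biological coefficient of variation was 7.2% and the median standard error over tested genes was 0.096. Counts were simulated with the mean levels and library sizes of these data and a dispersion set in advance. Among 16443 tested genes, 50 were changed at each of 1.25-fold, 1.5-fold and 2-fold, and 49 at 4-fold. The test recovered 42% of genes changed 1.25-fold and 84% of those changed 1.5-fold. A far smaller share of genes was changed than the 58% called in the real data, so recovery in the real data may differ.

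Alternatives were other scalings, other filters, DESeq2 1.42.0, limma-voom (limma 3.58.1), non-robust dispersion, a block for the replicate number, GC offsets, a threshold of 0.01 and leaving out each library. The members and lists were chosen with earlier results of these data known. From each list up to 3 called genes per direction with the smallest p could be named, and any gene of a list of 7 or fewer. Some genes that were computed are not reported here.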

Additional observations from a re-analysis of the deposited data

Results flagged for a closer look

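The spread within each group of 4 libraries was examined for 71 named genes, in 142 groups, by comparing the gap between the most extreme library and its nearest neighbour with the range of the group (Dixon's test at its 95% critical value). Chance alone marks about 1 group in 20, and 5 were marked, none of them for an HDAC gene. In CAMK1, Control replicate 3 was at 12.96 CPM, with the other Control libraries at 9.16 to 9.75 CPM. For VCP, Control replicate 3 was at 465.2 CPM, below the other Control libraries at 486.2 to 488.2 CPM. STEAP2, an epithelial marker, had 92.26 CPM in MARK3i replicate 3 and 76.0 to 76.3 CPM in the other MARK3i libraries. MEF2C had 4.291 CPM in Control replicate 4 and 5.17 to 5.25 CPM in the other Control libraries. SIRT2 had 76.19 CPM in MARK3i replicate 4 and 64.4 to 65.3 CPM in the other MARK3i libraries. The calls of CAMK1, STEAP2, MEF2C and SIRT2 held under all alternatives run, and the call of VCP was lost without that Control library, without MARK3i replicate 1 and with no filter.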

How the results depend on the processing

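Across 19 alternatives HDAC5, HDAC7, HDAC8 and HDAC11 were called in all, HDAC2 in 17, HDAC9 in 16 and HDAC4 in 12. HDAC3 was called in 2, HDAC1 in 1 and HDAC6 in 0 of them. At an adjusted p under 0.01, 4 members were called, 1 of them lower. With total-count scaling 1 member was lower, and the log2 changes were 0.1503 for HDAC1, −0.07175 for HDAC2, 0.2204 for HDAC3, −0.2515 for HDAC4 and 0.0348 for HDAC6. GC correction gave −0.2488 for HDAC4 and 0.00515 for HDAC6, and the replicate block with GC correction gave −0.2493 and 0.004475. When single libraries were left out, 1 to 3 members were lower, and log2 changes ranged from −0.2261 to −0.1488 for HDAC2, 0.08526 to 0.1511 for HDAC3, −0.4902 to −0.2772 for HDAC4 and 0.4972 to 0.8082 for HDAC9. The cause of these shifts was not tested. The titles number replicates 1 to 4 in both groups, but deviations of same-numbered libraries correlated at 0.131, −0.0875, −0.0533 and 0.0838, and only replicate 1 correlated best with its own number, so the numbers were not taken to pair samples. With the replicate block 9596 genes were called against 9549 without it, and again 7 members, 4 higher and 3 lower. HDAC9 had 16 to 56 counts per library, the fewest of the members, and whether depth sets its lost calls was not tested.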
